A study of Mus musculus with 62 samples.

Results

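The transcripts described here are those made from the mitochondrial genome, taken as every gene whose symbol begins with mt-, which gave 37 of the 47643 genes in the table. They comprise 13 messenger RNAs, 22 transfer RNAs and 2 ribosomal RNAs. They were measured by RNA sequencing of the tibialis anterior, a shin muscle of mostly fast fibres, in 62 libraries. CAC mice had been injected with cachectic melanoma cells, NCAC mice with non-cachectic melanoma cells, and Con mice had a mock injection. Cachexia is a wasting of muscle and fat in chronic disease, cancer included. All mice were female and labelled as aged 2 months at every week, so the time that age refers to is uncertain. Muscle was taken 2, 4, 6 or 8 weeks after injection. These 12 groups hold 5 libraries each, apart from CAC at 8 weeks with 7, whose title numbers have gaps for which no reason is given. The series text names NCI Ath/nude mice and the sample labels name strain C57BL6/J, so the strain is uncertain. Beyond these strain names no genotype or altered gene is given, and the cell lines are not named. Nothing states that each library came from its own animal, so p-values measure the spread between libraries.

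The mitochondrial genome is a small circle carried in many copies per cell. Its messenger RNAs all encode membrane subunits of the respiratory chain and the ATP synthase, and its ribosomal and transfer RNAs serve their translation inside the organelle. Both strands are transcribed as long precursors that are cut into single RNAs, so the level of each RNA reflects its maturation and decay as well as its synthesis. Most subunits of the same complexes come from nuclear genes, and the energy demand of muscle makes the mitochondrial messengers some of its most abundant RNAs.

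Of the messenger RNAs, 7 encode subunits of complex I (NADH dehydrogenase), 1 encodes cytochrome b of complex III, 3 encode the catalytic core of complex IV (cytochrome c oxidase) and 2 encode subunits of complex V (ATP synthase). In GENCODE M21 (GRCm38, the assembly also called mm10), 12 of them lie on the plus strand of the reference chromosome M, and mt-Nd6 lies on the minus strand. Neighbouring genes overlap at several places, where a read can belong to either, and how such reads were divided is not given in the sources used here. The 3 overlaps below are shown because pairs of these genes are compared further on. Each is written on the strand of the first gene, with the bases shared by both genes in capitals.
mt-Atp8 into mt-Atp6, chrM:7912-7984: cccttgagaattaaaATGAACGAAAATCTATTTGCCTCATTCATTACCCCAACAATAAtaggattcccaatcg
mt-Nd4l into mt-Nd4, chrM:10152-10188: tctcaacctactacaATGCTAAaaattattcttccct
end of mt-Nd5, facing mt-Nd6, chrM:13537-13565: ttatcttatactcaaTTAATCTCGAGTAA
The shared stretch is 43 bases for mt-Atp8 and mt-Atp6, 7 bases for mt-Nd4l and mt-Nd4, and 14 bases for mt-Nd5 and mt-Nd6, which run in opposite directions. The first stretch opens with the ATG that starts mt-Atp6 and closes with the TAA that ends mt-Atp8, so the 2 reading frames are read from a single messenger.

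For 3 messengers the annotated transcript stops on a lone T, the first letter of a stop codon that is completed by the tail of adenines added to the RNA. They are shown because the library kit named in the labels' protocols selects RNA by that tail. In each, the last 30 bases are written on the coding strand with the lone T in capitals.
mt-Co3, chrM:9361-9390: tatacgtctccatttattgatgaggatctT
mt-Nd4, chrM:11515-11544: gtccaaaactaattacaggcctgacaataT
mt-Cytb, chrM:15259-15288: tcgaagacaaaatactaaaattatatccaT
The annotated transcripts of the other 10 messengers hold a whole stop codon. For mt-Nd1 and mt-Nd2 its last bases are also the first of the transfer RNA gene that follows on the same strand. There mt-Nd1 ends at 3707 and mt-Ti starts at 3706, and mt-Nd2 ends at 4951 and mt-Tw starts at 4950.

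Only the 13 messengers had values. All 22 transfer RNAs and both ribosomal RNAs, mt-Rnr1 and mt-Rnr2, are listed at 0 in each of the 62 libraries. Every entry of the nuclear classes miRNA (2144), snoRNA (1439), snRNA (1382), misc_RNA (553) and rRNA (353) is listed at 0 as well, so no level of these RNAs can be read from the table. Values are TPM, transcript abundances scaled for length so that every library sums to 1000000. Read depth is not given by such values and was not used, and a lower share of abundant RNAs raises the values of all others. All 13 messengers passed the filter of a mean of at least 1 TPM, as did 11107 genes in all.

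Nuclear copies of mitochondrial sequence could draw reads away from several messengers. Of the 50-base words of mt-Co2, 100% also occur in annotated nuclear gene models, as do 99.9% for mt-Co3, 99.5% for mt-Atp6, 98.8% for mt-Nd4l and 98.0% for mt-Nd3. The share was 62.2% for mt-Nd4 and 51.1% for mt-Co1, under 10% for mt-Nd2 (8.19%) and mt-Nd5 (7.61%), and 0 for mt-Nd1, mt-Atp8, mt-Nd6 and mt-Cytb. The highest value of any of these copies in the table was 0.184 TPM, so next to no signal was credited to them. How reads matching both places were handled is not given in the sources used here, and the values of the messengers with copies carry that uncertainty.

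In muscle without cachexia the mitochondrial messengers filled nearly as much of the library as all nuclear genes together. Over the 40 Con and NCAC libraries their median share was 47.6% of TPM, and the mean levels fell into a clear order. First was mt-Co1, the core subunit of complex IV that binds its haem and copper, at 91640 ± 9174 TPM (SD, n = 40). Next came mt-Co3 at 64217 ± 7975 TPM and mt-Co2 at 64013 ± 7059 TPM, which did not differ beyond their spread, with mt-Co3 the higher in 23 of 40 libraries. Below them stood mt-Atp6, a subunit of the proton channel of ATP synthase, at 57236 ± 5839 TPM, and mt-Cytb at 39075 ± 3925 TPM. These 5 were the most abundant transcripts of the whole table, ahead of Acta1, skeletal muscle actin, which had a mean of 31633 TPM over all 62 libraries.

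Complex I messengers were less abundant. The highest was mt-Nd1 at 32892 ± 4159 TPM (SD, n = 40), followed by mt-Nd4 at 27407 ± 2135, mt-Nd2 at 26009 ± 2495, mt-Nd4l at 19747 ± 1799, mt-Nd3 at 14987 ± 2401 and mt-Nd5 at 12530 ± 1699 TPM. Between mt-Nd1 and mt-Nd4 lay mt-Atp8, the small second ATP synthase subunit, at 29911 ± 3630 TPM, which mt-Nd1 exceeded in 31 of 40 libraries. By far the lowest was mt-Nd6, the only messenger of the other strand, at 464 ± 210 TPM, with a coefficient of variation of 45.2% against 7.79% to 16.02% for the other 12. The kit keeps strand information, but whether the counting used it is not given, so RNA of the opposite strand cannot be told apart from mt-Nd6 here. It also selects RNA by the tail of adenines, and tails were not measured. Levels of different messengers, mt-Nd6 included, may thus differ through capture.

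The share of TPM held by mitochondrial messengers was lower in late cachexia than in muscle without it. At 6 weeks the CAC muscles held 33.5, 36.8, 40.7, 40.7 and 41.3%, and every Con muscle lay above them, with a median of 47.9% and a highest share of 51.7%. At 8 weeks Con muscle held 39.9, 45.2, 48.7, 51.2 and 58.9%, while 7 CAC muscles ran from 34.7% through a median of 36.8% to 41.5%. Those groups overlapped through the lowest Con muscle, replicate 2, which lay below 2 of the CAC muscles. NCAC muscle held 42.3, 42.8, 43.7, 49.1 and 61.1% at 6 weeks and 44.1, 47.6, 47.7, 48.6 and 49.2% at 8 weeks, all above every CAC muscle of the same week. Of the 12 libraries with the lowest shares 10 were CAC muscle of 6 or 8 weeks, and 7 of those 12 late CAC muscles lay below all 40 Con and NCAC libraries. No test was made of this sum, which is given as a description.

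Earlier shares lay close together. At 2 weeks CAC muscle held 44.4 ± 3.59% (SD, n = 5), Con 48.8 ± 5.56% and NCAC 46.7 ± 2.50%. The 4-week values were 44.7 ± 3.29% in CAC, 48.1 ± 4.52% in Con and 48.5 ± 2.36% in NCAC. CAC overlapped with both other groups at each of these times. Expressed against the nuclear transcripts of the same library, the messengers stood at 0.985 ± 0.290 in Con, 0.905 ± 0.0686 in NCAC and 0.607 ± 0.0638 (n = 7) in CAC at 8 weeks.

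A few libraries stood apart by their share. The highest were replicate 4 of NCAC at 6 weeks (61.1%), replicate 5 of Con at 8 weeks (58.9%) and replicate 5 of Con at 2 weeks (58.3%). Results that changed without one of them are given below both ways. The lowest shares were those of replicate 1 of CAC at 6 weeks (33.5%) and replicates 6 and 1 of CAC at 8 weeks (34.7% and 35.7%). Array weights from limma are smaller for libraries farther from their group. They were 0.166, 0.168 and 0.129 in these low libraries and 0.0840, 0.320 and 0.208 in the high ones, over a range of 0.0840 to 3.43. In bulk muscle, fewer mitochondria-rich cells and less mitochondrial RNA per cell cannot be told apart.

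**Figure D1:**
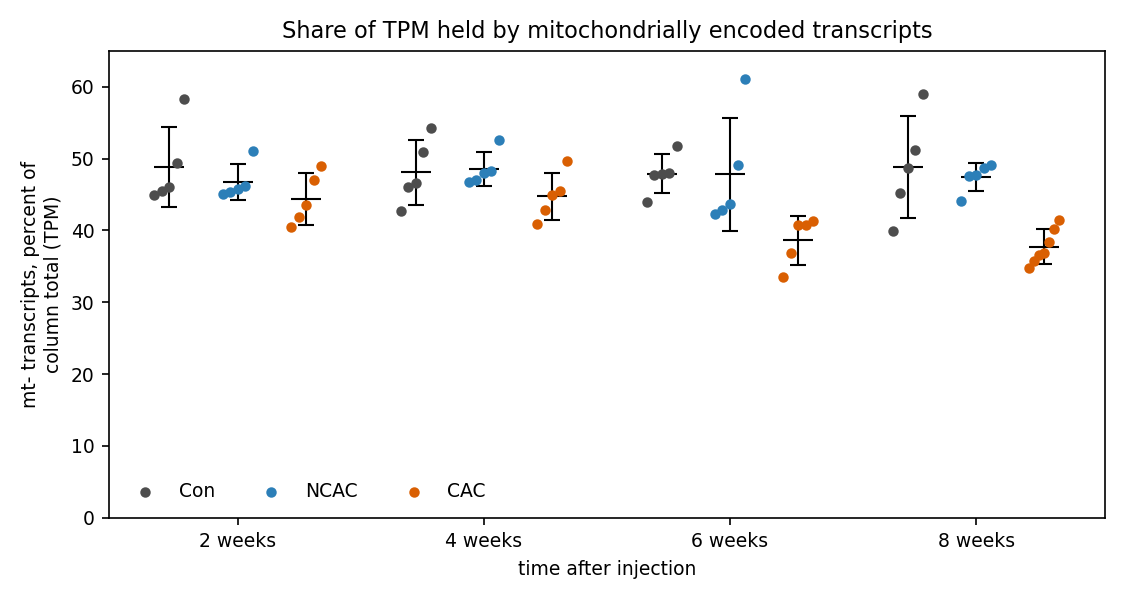
Share of each library's TPM held by the 13 mitochondrial messengers, by group and week; points are libraries, bars show mean and SD (n = 5, and 7 for CAC at 8 weeks). The CAC points at 6 and 8 weeks sit at 33.5% to 41.5%, and single high libraries stand out in Con at 2 and 8 weeks and NCAC at 6 weeks.

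By complex, the largest difference in TPM was in complex IV, the most abundant class. At 8 weeks complex IV messengers made up 21.9 ± 3.11% of all TPM in Con, 21.4 ± 1.10% in NCAC and 16.3 ± 0.939% (SD, n = 7) in CAC. The corresponding shares for complex I were 13.5 ± 2.02%, 13.7 ± 0.474% and 11.1 ± 1.19%. Complex V stood at 9.25 ± 1.33%, 8.58 ± 0.508% and 7.24 ± 0.458%. Cytochrome b alone held 4.13 ± 0.682%, 3.83 ± 0.180% and 3.04 ± 0.261%. All 7 CAC muscles lay below every Con muscle of that week for complex III and for complex IV.

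Gene by gene, the question of when cachectic muscle departs from mock muscle was tested with limma on log2(TPM + 1), with p-values adjusted by Benjamini-Hochberg over all 11107 genes. None of the 13 messengers passed at 2 or 4 weeks, where 0% and 0.0450% of all genes were called lower. Their log2 changes lay between -0.24 and -0.08 at 2 weeks and between -0.15 and -0.05 at 4 weeks, all below 0. The median change at 2 weeks was -0.13, and without replicate 5 of Con it was -0.06 with 11 of 13 below 0. At 4 weeks it was -0.10, and without replicate 4 of Con it was -0.05. None had an unadjusted p under 0.05 at either time. At 6 weeks 10 of 13 fell and none rose, against 3.26% of all genes called lower and 60.7% called higher. At 8 weeks 11 fell and none rose, against 5.09% lower and 69.4% higher. The median log2 change of the messengers was -0.34 at 6 weeks and -0.40 at 8 weeks, where the median over all genes was 0.38 and 0.46. Without replicate 5 of Con the 8-week median was -0.26, with all 13 changes below 0 and 9 called.

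Because most genes shifted upwards, the same contrasts were fitted on other scales. With median-of-ratios scaling, which brings the median of all genes to 0.01 at 6 weeks and 0.02 at 8 weeks, 12 and then 13 messengers fell, with mt-Nd6 the one not called at 6 weeks, against 18.1% and 24.2% of all genes. Their median change was then -0.78 and -0.93. Scaled to the nuclear total of each library, 12 and 13 fell as well, with medians of -0.58 and -0.70, against 8.20% and 12.4% of all genes. The direction was the same on the 3 scales at 6 and 8 weeks for all 13 messengers, while the size differed by more than 1.5 times. All 13 changes were already negative as deposited. Both rescalings divide CAC libraries of these weeks by larger factors, on average, than Con libraries, which lowers every change. The shared direction therefore could not have come out otherwise and is no separate check of the fall.

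**Figure D2:**
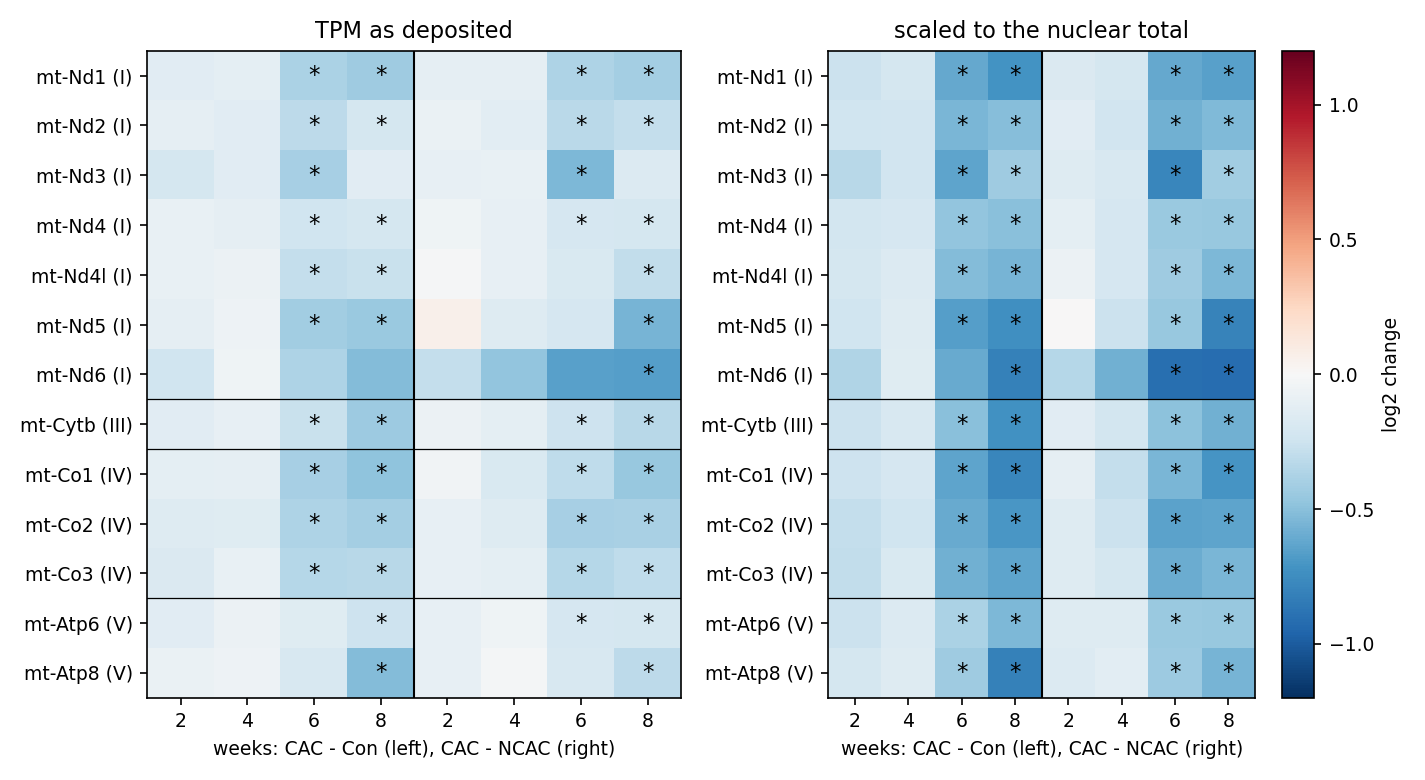
Log2 change of each mitochondrial messenger (complex in brackets) in CAC against Con and against NCAC at 2, 4, 6 and 8 weeks, as deposited and scaled to the nuclear total; asterisks mark adjusted p under 0.05 (limma). Asterisks stand only in the 6 and 8 week columns, where the medians against Con are -0.34 and -0.40 as deposited and -0.58 and -0.70 on the nuclear scale.

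Complex IV carried the most abundant transcripts that fell. For mt-Co1, Con muscle at 8 weeks held 77289, 80480, 91602, 96312 and 109253 TPM, NCAC muscle held 81565, 86475, 88333, 90652 and 96914 TPM, and the 7 CAC muscles ran from 57048 through a median of 65904 to 67294 TPM. Every CAC muscle lay below every other muscle of that week, and below all 40 Con and NCAC libraries of the study, whose lowest value was 77289 TPM. The log2 change was -0.49 against Con (SE 0.08, adjusted p = 2.47e-06 with limma) and -0.46 against NCAC (adjusted p = 6.83e-06 with limma). At 6 weeks the CAC values of 58182, 65368, 72862, 78701 and 79082 TPM met those of Con, 78969 to 102468 TPM, only at their upper end, with a log2 change of -0.40 (adjusted p = 0.000294 with limma).

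The other core subunits moved similarly. mt-Co2, which receives electrons from cytochrome c, had 52707 to 74935 TPM in Con and 57797 to 65593 TPM in NCAC at 8 weeks, against 40249 to 53392 TPM in CAC. CAC lay wholly below NCAC, while its highest muscle passed the lowest Con muscle. Its log2 change from Con was -0.37 at 6 weeks and -0.40 at 8 weeks (adjusted p = 0.00139 and 0.000115 with limma). mt-Co3 fell by 0.34 at both times, and replicate 1 of CAC at 8 weeks, at 60223 TPM, lay well above the other 6, which spanned 44379 to 53141 TPM.

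**Figure D3:**
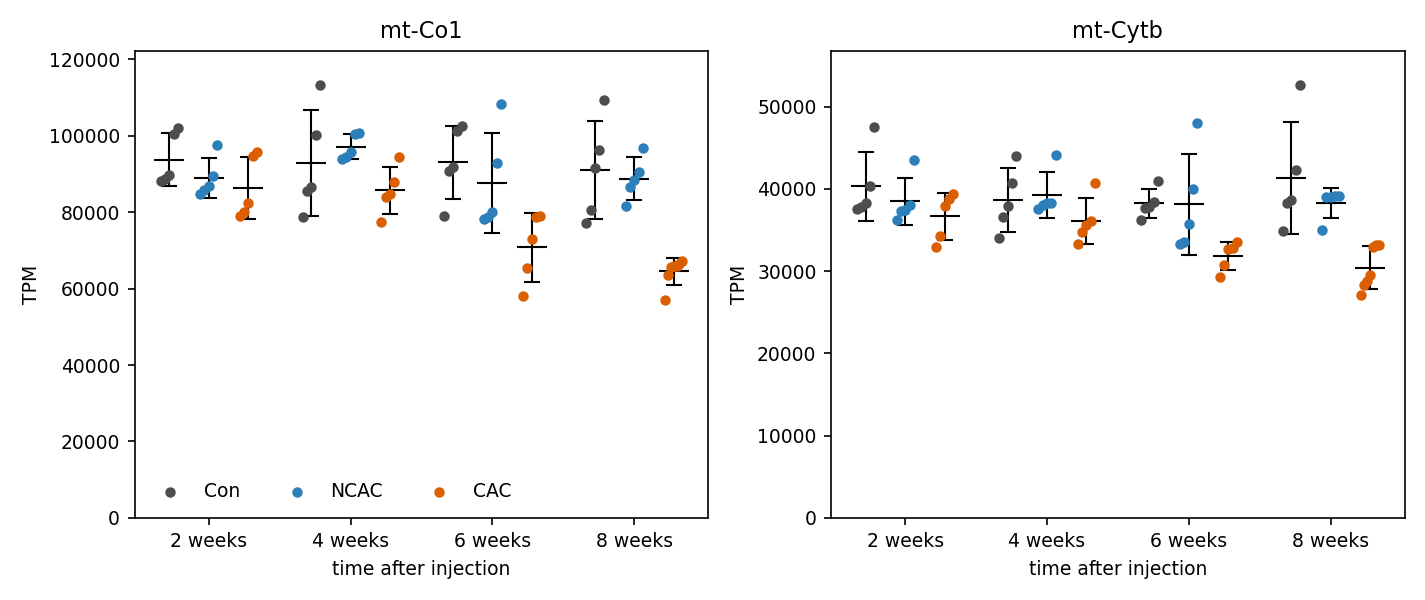
TPM of mt-Co1 (left) and mt-Cytb (right), by group and week; points are libraries, bars show mean and SD. The 7 CAC libraries at 8 weeks, 57048 to 67294 TPM for mt-Co1 and 27036 to 33169 TPM for mt-Cytb, sit below all 40 Con and NCAC libraries.

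Cytochrome b, the only mitochondrially encoded subunit of complex III, showed the same separation. mt-Cytb stood at 34846, 38305, 38624, 42289 and 52576 TPM in Con at 8 weeks and at 35050, 38984, 39044, 39078 and 39156 TPM in NCAC. CAC muscles ran from 27036 through 29476 to 33169 TPM, below all 40 Con and NCAC libraries of any week, of which the lowest had 33336 TPM. The change against Con was -0.43 (SE 0.08, adjusted p = 7.20e-06 with limma), and against NCAC it was -0.34 (adjusted p = 0.000288 with limma). At 6 weeks all CAC muscles (29283 to 33477 TPM) lay below all Con muscles (36189 to 40951 TPM), with a change of -0.27.

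The complex I messengers divided. mt-Nd1, mt-Nd4l and mt-Nd5 fell at 6 and at 8 weeks in CAC against Con, by 0.38 and 0.42, by 0.29 and 0.26, and by 0.42 and 0.44 on the log2 scale. mt-Nd5, which encodes a large proton-pumping subunit, had 9668, 11840, 11900, 12839 and 16507 TPM in Con at 8 weeks, 12521 to 15173 TPM in NCAC and 7515 through 9303 to 10437 TPM in CAC. Its CAC values all lay below NCAC, and only replicate 2 of Con overlapped with them. Against NCAC the change was -0.56 at 8 weeks (adjusted p = 5.07e-05 with limma), and at 6 weeks it was -0.21 (adjusted p = 0.143 with limma). Without replicate 1 of CAC the 6-week change of mt-Nd5 against NCAC was -0.09.

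Other complex I messengers were less regular. mt-Nd4, another proton-pumping subunit, fell by 0.24 at 6 weeks and by 0.21 at 8 weeks, the latter no longer called without replicate 5 of Con. mt-Nd2 fell by 0.31 at 6 weeks with no overlap between groups. At 8 weeks its change was -0.22 (adjusted p = 0.0322 with limma), a call lost when replicate 1, 2 or 6 of CAC or replicate 3, 4 or 5 of Con was left out. The change of mt-Nd2 was -0.14 without replicate 5 of Con and -0.15 without replicate 1 of CAC. mt-Nd3 fell by 0.40 at 6 weeks (CAC 10209 to 12065 TPM, Con 12892 to 16014 TPM), whereas at 8 weeks its CAC muscles spread over 11560 to 15556 TPM against 10598 to 17133 TPM in Con. The change was then -0.13 (SE 0.12, adjusted p = 0.298 with limma), and -0.17 against NCAC did not pass either (adjusted p = 0.192 with limma). The change of mt-Nd3 against Con was -0.25 without replicate 2 of Con and -0.07 without replicate 5, and it passed in neither case.

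The minus-strand messenger mt-Nd6 had mean levels of 253 ± 78.9 TPM in CAC (SD, n = 7) and 388 ± 226 TPM in Con at 8 weeks. Con values were 211, 269, 338, 341 and 781 TPM, so a single library set much of that mean. The log2 change of -0.52 had an SE of 0.28 and did not pass (adjusted p = 0.0919 with limma). It was -0.23 without replicate 5 of Con, and it passed without replicate 2 of Con (-0.70) or replicate 2 of CAC (-0.63). Against NCAC, whose values were 229, 365, 400, 410 and 624 TPM, the change of -0.66 passed at 8 weeks (adjusted p = 0.0316 with limma). It no longer passed without replicate 4, 5 or 6 of CAC or replicate 2, 3 or 4 of NCAC.

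Among complex V messengers mt-Atp6 changed least at 6 weeks, by -0.15 (adjusted p = 0.133 with limma), and mt-Atp8 by -0.19 (adjusted p = 0.0719 with limma). The mt-Atp8 change passed without replicate 3 or 5 of CAC or replicate 5 of Con. At 8 weeks both fell, mt-Atp6 by 0.25 and mt-Atp8 by 0.52 (SE 0.09, adjusted p = 1.66e-06 with limma). mt-Atp8 had 27618, 31037, 33485, 35381 and 44094 TPM in Con, 26464, 29342, 29452, 29554 and 32820 TPM in NCAC, and 21779 through 23358 to 26396 TPM in CAC. All CAC muscles lay below all others of that week. NCAC also stood lower than Con for mt-Atp8, by -0.20, which did not pass in that contrast (unadjusted p = 0.0384, adjusted p = 1 with limma).

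Groups that did not overlap at all were counted as well. All CAC muscles lay below all Con muscles for 8 messengers at 6 weeks, where 1.95% of all genes were so placed, and for 3 at 8 weeks (0.684%). The 3 at 8 weeks were mt-Cytb, mt-Co1 and mt-Atp8. Against NCAC the numbers were 4 at 6 weeks (1.22%) and 7 at 8 weeks (1.12%). No messenger was higher in all CAC muscles in any of these comparisons.

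Against NCAC muscle, in a comparison that shares the CAC libraries with the one above, 0 messengers passed at 2 or 4 weeks (0% and 0.585% of all genes called lower). At 6 weeks 9 fell (3.52% of all genes), and without replicate 4 of NCAC, the library with the highest share, 4 did: mt-Nd2, mt-Nd3, mt-Co1 and mt-Co2. At 8 weeks 12 of 13 fell (5.04%), all but mt-Nd3, and the call of mt-Atp6 was lost without replicate 1 of NCAC. The same contrasts on the median-of-ratios and nuclear scales called 13 lower at 6 weeks (21.7% and 9.29% of all genes) and 13 at 8 weeks (24.3% and 11.3%).

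NCAC and Con muscle are compared to see how these transcripts stand after injection of non-cachectic melanoma cells. No messenger passed at any of the 4 times with limma, and the only unadjusted p under 0.05 was that of mt-Atp8 at 8 weeks. In these contrasts 0.162% of all genes were called lower at 2 weeks and 0% at 4, 6 and 8 weeks. Log2 changes of the 13 lay between -0.22 and 0.43, with the extreme of 0.43 from mt-Nd6 at 4 weeks.

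Whether the CAC difference grew with time was tested as its change between weeks. Compared with 2 weeks, no messenger passed at 4 or 6 weeks (0% and 0.603% of all genes called lower), although mt-Co1 had an unadjusted p of 0.0379 at 6 weeks. At 8 weeks 3 did, against 2.57% of all genes: mt-Atp8 by -0.44 (adjusted p = 0.00903), mt-Co1 by -0.36 (adjusted p = 0.0204) and mt-Cytb by -0.30 (adjusted p = 0.0420), all with limma. This count was 5 without replicate 5 of Con at 2 weeks and 1, mt-Atp8, without replicate 5 of Con at 8 weeks. The mt-Cytb call was lost in 12 of 22 fits that each left out 1 library: replicate 2, 3 or 4 of CAC or of Con at 2 weeks, replicate 1, 2, 5 or 6 of CAC at 8 weeks, and replicate 3 or 5 of Con at 8 weeks. Median-of-ratios scaling gave 5, against 10.7% of all genes, and the nuclear scale gave 1, against 5.40%. The change of mt-Atp8 holds a higher Con mean as well as a lower CAC mean. Con averaged 30315 TPM at 2 weeks and 34323 TPM at 8 weeks, and CAC 28589 and 23716 TPM.

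The make-up of the mitochondrial pool was described apart from its size. As a share of the summed mitochondrial TPM, mt-Co1 made up 17.8 to 19.4% in Con at 8 weeks and 16.2, 16.4, 16.5, 16.6, 17.9, 18.0 and 18.4% in CAC. The 4 lowest of these lay under the lowest of the 40 Con and NCAC libraries, 17.5%, and the other 3 lay within their range. mt-Atp6 took the opposite course, at 12.3 to 13.7% in CAC against 11.7 to 12.5% in Con and 11.4 to 12.2% in NCAC at 8 weeks. At 6 weeks its CAC shares of 12.6 to 13.6% were all above Con, 10.8 to 11.9%. Of the 7 CAC muscles at 8 weeks, 5 exceeded all 40 Con and NCAC libraries in the share of mt-Atp6, and 5 did so in that of mt-Nd2. These shares sum to a fixed total, so a lower part of one messenger raises the others, and they were not tested.

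**Figure D4:**
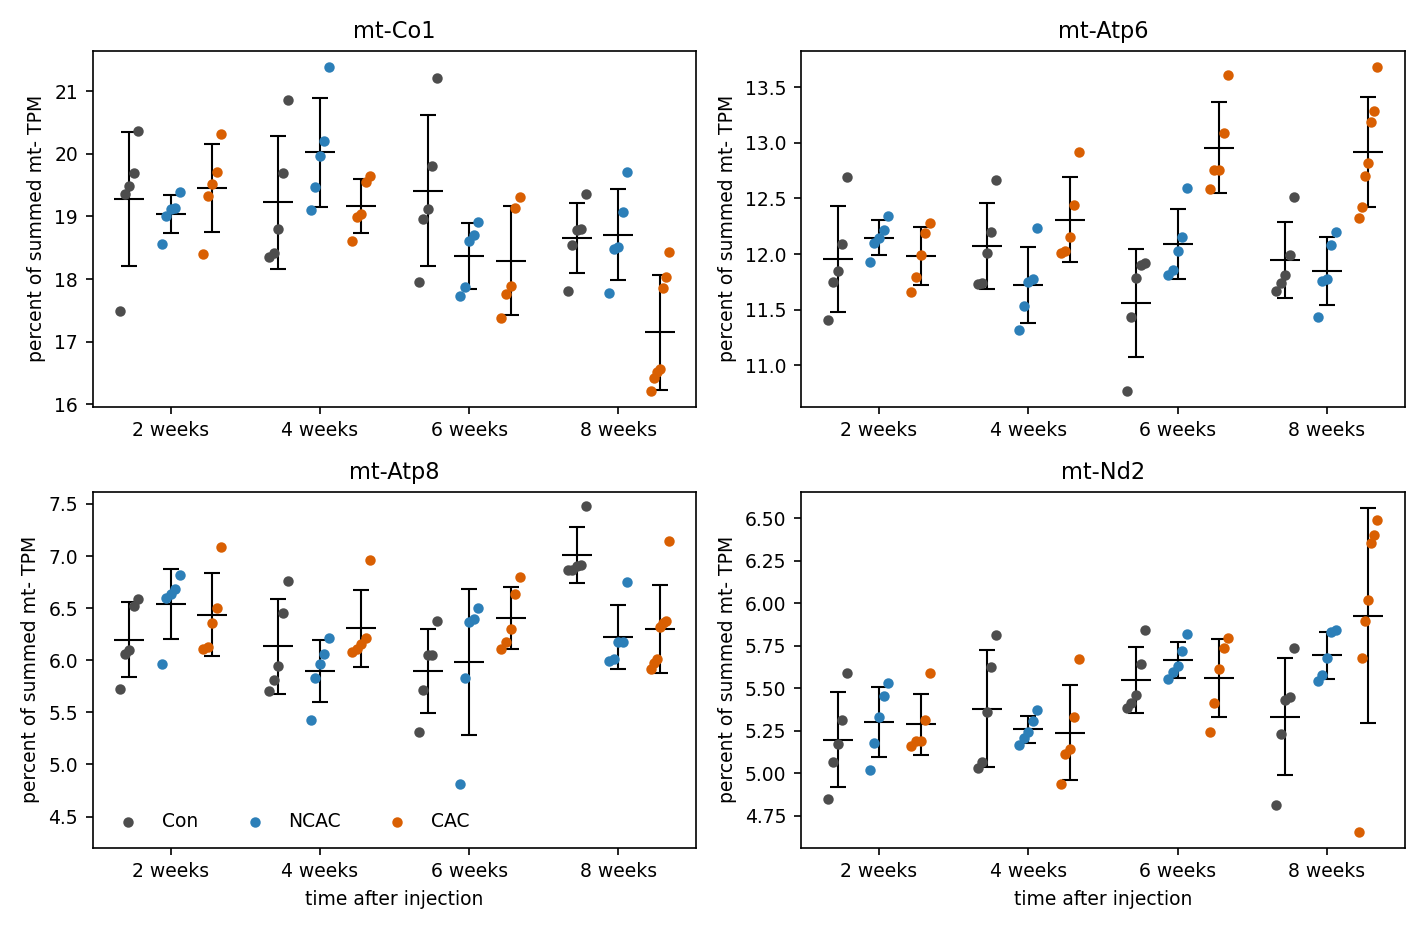
Share of the summed mitochondrial TPM taken by mt-Co1, mt-Atp6, mt-Atp8 and mt-Nd2, by group and week; points are libraries, bars show mean and SD, and the axes do not start at 0. At 8 weeks mt-Co1 averages 17.2% in CAC and 18.7% in Con and mt-Atp6 12.9% and 11.9%, while mt-Atp8 is high in Con (7.01%).

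A single CAC muscle of 8 weeks, replicate 1, had a pool unlike the other 6. There mt-Co3 held 16.8% and mt-Nd3 4.35% of the pool, against 11.7 to 13.5% and 3.01 to 3.65% in the others. The same muscle had the lowest parts of mt-Nd1 (4.94% against 6.10 to 7.42%) and mt-Nd2 (4.66% against 5.68 to 6.49%). Its total share of 35.7% lay among those of the others. Replicate 4 of NCAC at 6 weeks, with the highest total of the study, had high parts of mt-Co3 (15.2%) and mt-Nd3 (4.13%) too, and low parts of mt-Atp8 (4.82%), mt-Nd4l (2.86%) and mt-Nd5 (1.67%).

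The messenger pairs mt-Atp8 with mt-Atp6 and mt-Nd6 with mt-Nd5, which share bases, were compared as ratios, with 8 exact two-sided permutation tests in all, adjusted over those 8. Ratios involving mt-Rnr2 had also been planned and could not be formed, since it is listed at 0. The ratio of mt-Atp8 to mt-Atp6, which sit on a joint messenger, was 0.488 ± 0.0277 (SD, n = 7) in CAC and 0.587 ± 0.0330 (n = 5) in Con at 8 weeks. That difference of -0.27 on the log2 scale passed (exact permutation p = 0.00253, the smallest that 7 against 5 can give, adjusted p = 0.0202). Con at 8 weeks stood apart from the other Con groups, which averaged 0.519, 0.509 and 0.510 at 2, 4 and 6 weeks, and from NCAC at 8 weeks with 0.525 ± 0.0203. CAC at 8 weeks lay close to CAC at 6 weeks, 0.495 ± 0.0339. At 2, 4 and 6 weeks the log2 difference between CAC and Con was 0.05, 0.01 and -0.04, and none passed (exact permutation tests, adjusted p = 0.968 each).

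For mt-Nd6 and mt-Nd5, which face each other on opposite strands, the ratio was 0.0281 ± 0.00973 (n = 7) in CAC and 0.0294 ± 0.0104 (n = 5) in Con at 8 weeks. The log2 differences at 2, 4, 6 and 8 weeks were -0.13, 0.01, 0.05 and -0.08, and none passed (exact permutation tests, adjusted p = 0.968 each). Ratios varied widely between libraries of a group, for example 0.0288 to 0.109 in Con at 2 weeks, so a small difference would not be detected.

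Within groups the messengers varied together, but not evenly. Over the deviations of log2 TPM from group means in the 62 libraries, which share a fixed total, the median Pearson correlation of the 78 pairs was 0.60, and 17 pairs exceeded 0.8. The closest pair was mt-Nd3 and mt-Co3, also separated by a transfer RNA gene only, at r = 0.92 (0.88 without the 2 libraries farthest out). mt-Nd4l correlated at 0.83 with mt-Nd5 and at 0.82 with mt-Nd4, with which it shares a messenger (0.79 each without 2 libraries). By contrast mt-Nd3 and mt-Nd5 had r = -0.003 (0.11 without 2 libraries), mt-Nd3 and mt-Nd4l 0.01 (0.17) and mt-Nd4l and mt-Co3 0.04 (0.16), although only a transfer RNA gene separates mt-Nd3 from mt-Nd4l. mt-Atp8 and mt-Atp6 correlated at 0.74. mt-Nd6 had a median of 0.45 with the other 12.

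**Figure D5:**
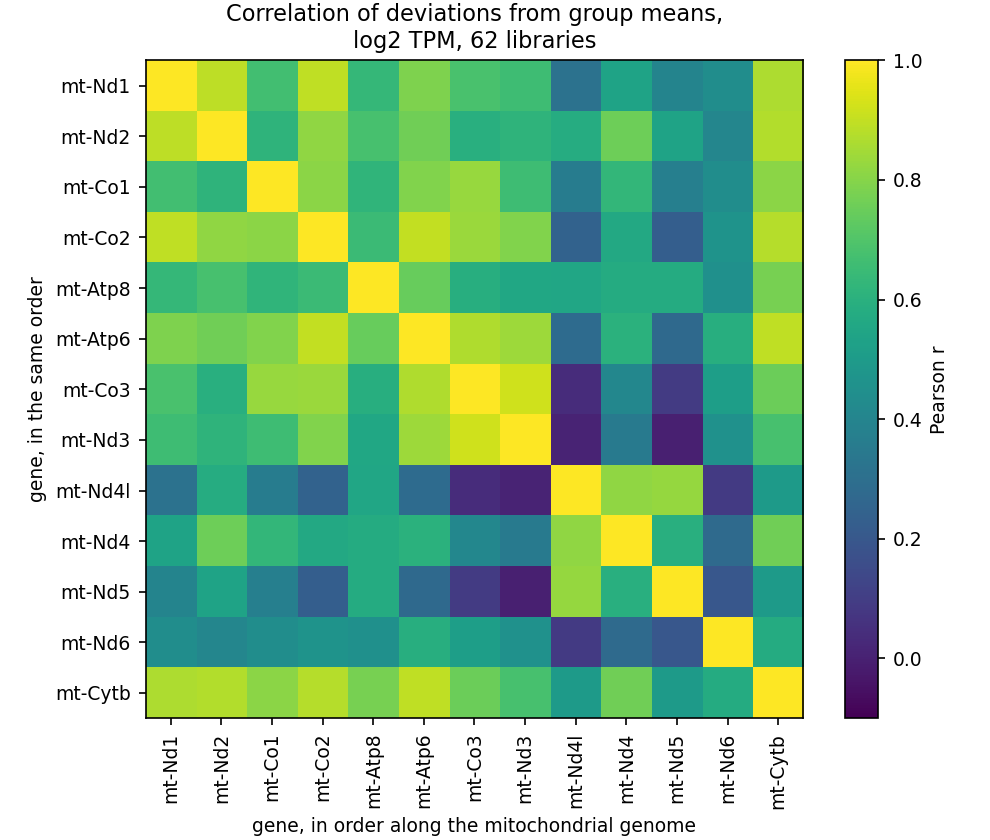
Pearson correlation of deviations from group means in log2 TPM for each pair of mitochondrial messengers over 62 libraries, in genome order. The highest value joins mt-Nd3 and mt-Co3 (0.92), while mt-Nd4l and mt-Nd5 correlate with each other (0.83) and little with mt-Co3 (0.04 and 0.09) or mt-Nd3 (0.01 and -0.003).

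Nuclear genes of the same complexes were counted from lists of subunits, as the partners of the mitochondrial messengers. In CAC against Con at 6 and 8 weeks, 10 and 20 of 36 nuclear complex I genes fell, with 1 and 5 higher, where 3.26% and 5.09% of all genes were called lower and 60.7% and 69.4% higher. Of 9 complex III genes 4 and 5 fell, of 14 complex IV genes 2 and 4, and of 15 complex V genes 6 and 6, with none, 2 and 3, and 1 and 1 higher. In complex II, which has no mitochondrially encoded subunit, 3 and 4 of 4 fell. The median log2 change at 8 weeks was -0.19 for complex I, -0.43 for II, -0.23 for III, -0.07 for IV and -0.20 for V, against 0.46 for all genes. With median-of-ratios scaling 34 of 36, 4 of 4, 9 of 9, 11 of 14 and 14 of 15 fell at 8 weeks, where 24.2% of all genes did.

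Named nuclear partners show the range. Ndufs1, a core iron-sulphur subunit of complex I, had 136 ± 28.5 TPM in CAC (SD, n = 7) and 239 ± 11.3 in Con at 8 weeks, a log2 change of -0.83 (adjusted p = 7.17e-09 with limma). Cox7a1, the muscle form of a complex IV subunit, had 595 ± 120 and 1063 ± 109 TPM, a change of -0.85. Other subunits fell less: Ndufs8 of complex I by 0.54, Sdhb, Sdha and Sdhd of complex II by 0.52, 0.34 and 0.41, and Uqcrc2, Uqcrfs1 and Uqcrc1 of complex III by 0.52, 0.39 and 0.56. Cox5a of complex IV fell by 0.46, and Atp5j and Atp5g3, a stalk and a ring subunit of ATP synthase, fell by 0.44 and 0.55. Some rose: Cox6a1, the non-muscle form of its subunit, by 0.56, Atp5g2, which encodes a ring subunit of ATP synthase, by 0.68, and Ndufa7 of complex I by 0.61. On the median-of-ratios scale these 3 stood at 0.05, 0.16 and 0.09, and none passed.

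Genes that copy, transcribe and process mitochondrial DNA and RNA had a median change above 0 as deposited, as all genes did. Of 13 genes of mitochondrial DNA transcription and replication 5 rose and 1 fell at 6 weeks, and 9 rose and 1 fell at 8 weeks, where 60.7% and 69.4% of all genes rose. Their median was 0.35 at 8 weeks. Of 22 genes of mitochondrial RNA processing and stability 9 and 12 rose and none fell, with a median of 0.25 at 8 weeks. On the median-of-ratios scale both medians were below 0 at 8 weeks, at -0.11 and -0.24. There 6 and 5 of 13 fell and 0 and 1 rose in the former list, and 11 and 12 of 22 fell and none rose in the latter. Of all genes 18.1% and 24.2% fell and 16.9% and 24.9% rose on that scale. Mterf2, a mitochondrial DNA-binding factor of the transcription termination family, fell by 0.97 at 8 weeks on the scale as deposited (10.8 ± 4.98 TPM in CAC, n = 7, and 20.1 ± 1.51 in Con, adjusted p = 2.48e-05 with limma) and by 1.43 rescaled. Polg, the mitochondrial DNA polymerase, rose by 0.68 (12.2 ± 3.18 against 7.17 ± 1.19 TPM, 0.20 rescaled). Mterf3, of the same family as Mterf2, rose by 0.62 (0.16 rescaled). Mtpap, the mitochondrial poly(A) polymerase, Hsd17b10, a part of the enzyme that trims transfer RNA ends, and Rexo2, which degrades short RNA fragments, rose by 0.47, 0.41 and 0.62. Rescaled, these 3 stood at -0.02, -0.10 and 0.10, and none passed.

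Markers of fibre type and of other cells moved beside these results. Summed TPM of 9 muscle fibre markers, chiefly of fast fibres, was 115337 ± 15148 in CAC (SD, n = 7) and 111144 ± 22063 in Con at 8 weeks. The sum of 8 slow and oxidative fibre markers ranged over 46.8 to 930 TPM in CAC and 378 to 1257 TPM in Con at 8 weeks. At 6 weeks it ranged over 175 to 348 and 264 to 778 TPM. There 1 of the 8 rose and 1 fell, where 60.7% and 3.26% of all genes did. Myh2 (mean 560 TPM over all libraries) made up most of the sum, and the other markers averaged 1.31 to 39.6 TPM. Macrophage markers (7 genes, each detected) summed to 55.1 to 87.3 TPM in CAC and 13.7 to 24.8 TPM in Con at 6 weeks. The sums were 59.2 to 152 and 20.7 to 53.8 TPM at 8 weeks. At 8 weeks 6 of 6 tested rose, where 69.4% of all genes did, and 4 rose on the median-of-ratios scale, where 24.9% did. Endothelial markers (5 genes) summed to 171 to 215 TPM in CAC and 98.4 to 142 TPM in Con at 8 weeks. Of these 4 rose and 1 fell, where 69.4% and 5.09% of all genes did. Rescaled, 2 rose and 1 fell, against 24.9% and 24.2% of all genes. Adipocyte markers (5 genes) summed to 87.6 to 474 and 18.6 to 54.9 TPM at 6 weeks and to 63.7 to 242 and 12.4 to 59.7 TPM at 8 weeks. At 8 weeks 3 of 4 tested rose, where 69.4% of all genes did, and 2 rose rescaled, where 24.9% did. Cfd (mean 57.7 TPM over all libraries) made up most of the adipocyte sum, and the other markers averaged 0.328 to 5.98 TPM. Fibroblast markers (5 genes) summed to 317 to 443 TPM in CAC and 171 to 217 TPM in Con at 6 weeks. The sums were 246 to 614 and 180 to 339 TPM at 8 weeks. Dcn (mean 197 TPM over all libraries) made up most of the fibroblast sum, and the other markers averaged 3.04 to 28.1 TPM. The sum therefore says little of the collagen genes in that list. The 4 nuclear-retained RNAs summed to 1128 ± 347 TPM in CAC and 589 ± 273 in Con at 6 weeks (SD, n = 5), and to 1091 ± 481 (n = 7) and 641 ± 75.4 (n = 5) at 8 weeks. Neat1 (mean 622 TPM over all libraries) made up most of that sum, and the others averaged 3.34 to 81.7 TPM. Red cell genes reached 14744 TPM in 1 CAC muscle of 8 weeks against at most 1169 TPM in Con. Hepatocyte markers (4 genes) summed to 4.02 to 1856 TPM in Con and 0.582 to 23.1 TPM in CAC at 2 weeks. At 4 weeks the sums were 0.209 to 215 and 0.190 to 88.5 TPM, while Con at 6 and 8 weeks had at most 0.287 and 0.298 TPM. Con at 2 weeks enters every test of a change from 2 weeks. The part of all these markers in the levels of the mitochondrial messengers was not tested.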

How the data were processed

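The authors deposited 1 table of TPM values for 47643 gene symbols in 62 libraries, and every column sums to 1000000. A kit that selects mRNA and keeps its strand was used, per the labels' protocols, and the genome build was mm10, per the submitters' processing notes. Which aligner, counter, annotation or filters were used is not given in the sources used here. All 62 columns were matched to samples by title. The members and gene lists were chosen with earlier results of these data known.

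The 11107 genes whose mean reached 1 TPM were fitted with limma 3.58.1 in R 4.3.3 on log2(TPM + 1), 1 mean per group, 50 residual degrees of freedom and a mean-variance trend. P-values were adjusted by Benjamini-Hochberg over all these genes in each contrast, with a threshold of 0.05. A log2 change is thus on the log2(TPM + 1) scale. The script was tested on simulated data. Shares, ratios and exact permutation tests were computed in Python 3.11.15 with pandas 2.3.3 and scipy 1.17.1, and 8 of 16 planned ratio tests could be run. The rule for names took all mitochondrial messenger and ribosomal RNAs, and up to 3 called genes of each nuclear list by smallest adjusted p at 8 weeks. Gene positions and sequences are from GENCODE M21 (GRCm38).

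Alternatives were a pseudocount of 0.1, no filter, median-of-ratios scaling, scaling to the nuclear total, fits of only the groups compared, the replicate number as a block, and leaving out each library. Chosen after seeing the data were a fit without the 3 libraries of highest mitochondrial share and limma's array weights.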

Additional observations from a re-analysis of the deposited data

Results flagged for a closer look

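Of 192 sets of values (a messenger, the total share or a ratio in 1 group), 26 had a highest or lowest library far from the rest of its group, by a gap test that chance would pass in about 1 of 20 groups. The sets are not independent, since the messengers of a library vary together. Most came from 4 libraries.

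In Con at 2 weeks, replicate 5 was the highest of its group for mt-Nd1 (42248 TPM, group median 30404), mt-Nd2 (29535 TPM), mt-Nd6 (1244 TPM), mt-Cytb (47509 TPM), mt-Atp8 (37998 TPM) and the ratio of mt-Nd6 to mt-Nd5 (0.109). In NCAC at 6 weeks, replicate 4 was the highest for mt-Nd1 (49314 TPM), mt-Nd3 (25232 TPM), mt-Nd6 (833 TPM), mt-Co2 (86987 TPM), mt-Co3 (92973 TPM) and the ratio of mt-Nd6 to mt-Nd5 (0.0817). In NCAC at 4 weeks, replicate 3 stood high for the total share (52.6%), mt-Nd1 (36288 TPM), mt-Nd2 (28240 TPM) and mt-Cytb (44158 TPM). Replicate 2 of NCAC at 2 weeks stood high for the total share (51.1%), mt-Cytb (43441.5 TPM) and mt-Atp6 (62456 TPM).

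Single values stood apart elsewhere. Replicate 5 of Con at 8 weeks was high for mt-Nd6 (781 TPM) and its ratio to mt-Nd5 (0.0473), and replicate 3 of Con at 6 weeks for mt-Nd1 (36399 TPM). Replicate 4 of NCAC at 8 weeks was low for mt-Cytb (35050 TPM), and replicate 6 of CAC at 8 weeks was low for mt-Co1 (57048 TPM). The ratio of mt-Nd6 to mt-Nd5 was low in replicate 1 of NCAC at 2 weeks (0.0249) and high in replicate 1 of CAC at 2 weeks (0.0606).

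For 3 messengers the difference between CAC and Con at 8 weeks was called as lower than that at 2 weeks, by a test of that change itself with limma. The change was -0.44 for mt-Atp8, -0.36 for mt-Co1 and -0.30 for mt-Cytb on the log2 scale. For mt-Atp8 the Con mean was also higher at 8 weeks (34323 TPM) than at 2 weeks (30315 TPM). The mt-Co1 call was lost without replicate 5 of Con at 8 weeks, and the mt-Cytb call was lost in 12 of 22 fits that each left out 1 library. What lies behind these values was not tested.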

How the results depend on the processing

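All counts are of mitochondrial messengers called lower. Against NCAC at 6 weeks the count of 9 became 4 with no filter (23019 genes fitted) and 4 with array weights. It ran from 4 to 10 when single libraries were left out, with 4 without NCAC replicate 4. For the change in the CAC to Con difference between 2 and 8 weeks, the count of 3 became 0 with no filter, 5 with median-of-ratios scaling, 1 with nuclear scaling, 6 with array weights, and 1 to 5 with single libraries left out. Between 2 and 6 weeks the count of 0 became 3 without the 3 libraries of highest share and 2 with array weights. The fit with no filter changed p-values before adjustment too. Against NCAC at 6 weeks, 7 messengers had an unadjusted p under 0.05 with limma, instead of 11. For the change from 2 to 8 weeks 1 did, instead of 3. The cause of these shifts in count was not tested. Counts of CAC against Con at 6 and 8 weeks and of CAC against NCAC at 8 weeks stayed within 1.5 times (7 to 12, 8 to 13 and 8 to 13 over all settings), and those at 2 and 4 weeks and of NCAC against Con stayed at 0. No messenger's called log2 change reversed.

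Without single libraries the log2 ratio of mt-Atp8 to mt-Atp6, CAC minus Con, ran from -0.0169 to 0.0584 at 4 weeks and from -0.29 to -0.24 at 8 weeks. That of mt-Nd6 to mt-Nd5 ran from -0.30 to 0.22, -0.0779 to 0.18, -0.13 to 0.24 and -0.18 to 0.11 at 2, 4, 6 and 8 weeks, and so changed sign. Over all 60 pairs, same-numbered libraries had a median correlation of -0.03 (15 above 0.1, range -0.33 to 0.33, and 13 best with their own number). Most pairs that correlated best with their own number were of CAC with NCAC, so a pairing of those 2 treatments is not excluded. With the replicate number as a block the counts were 10 and 11 against Con and 9 and 11 against NCAC at 6 and 8 weeks, and 2 for the change from 2 to 8 weeks. TPM gives no depth, so counting error could not be set beside these values.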
